A study of Mus musculus with 8 samples.

Results

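The interleukin 6 family was examined through 9 genes, chosen by symbol from the 24421 genes in the deposited tables. They comprise the cytokines Il6, Il11 and Lif, the ligand-binding receptors Il6ra and Il11ra1, the signalling receptors Lifr, Osmr and Il6st, and the feedback inhibitor Socs3. RNA sequencing of poly(A) RNA was performed on osteoblastic cells digested from the skull vault (calvaria) of newborn C57BL/6 mice. Cells of WT mice and of Def6-/- mice, which are deficient in the adaptor protein Def6, were collected at day 0 and at day 12 of culture in osteogenic medium with ascorbic acid and β-glycerophosphate. There were 8 libraries in 4 groups, with 2 libraries per group: WT day 0, WT day 12, Def6-/- day 0 and Def6-/- day 12. The study's methods call the 2 libraries biological replicates, and the labels do not say how many newborn mice each culture pooled.

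Cytokines of this family share gp130, the product of Il6st, as their signal-transducing subunit. IL-6 and IL-11 first bind their own alpha receptors, which then engage gp130, whereas LIF signals through a complex of LIFR with gp130 and oncostatin M through OSMR with gp130. Receptor-bound JAK kinases then phosphorylate STAT3, and SOCS3, itself a STAT3 target, binds gp130 and dampens the signal. In bone, cells of the osteoblast lineage both produce and respond to these cytokines, which influence osteoblast differentiation and the support of osteoclasts.

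In GENCODE vM21 (GRCm38, the build named as mm10 in the authors' notes), the cytokine genes lie at chr5:30013114-30019981 (Il6, plus strand), chr7:4772373-4782859 (Il11, minus strand) and chr11:4257557-4272514 (Lif, plus strand). The alpha receptor genes lie at chr3:89864059-89913196 (Il6ra, minus strand) and chr4:41699989-41769474 (Il11ra1, plus strand). Osmr (chr15:6813577-6874969, minus strand) and Lifr (chr15:7090614-7197489, plus strand) share chromosome 15, Il6st lies at chr13:112464070-112510086 (plus strand) and Socs3 at chr11:117966079-117970047 (minus strand).

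Short stretches upstream of the RefSeq transcription starts are shown because they carry the motifs of factors that act in this pathway or in osteoblasts. RefSeq (GRCm38.p6) gave 12 start windows for all 9 genes, each from 250 bases before to 50 bases after a start. Both strands were searched for the STAT motif TTCNNNGAA, the RUNX motif TGTGGT, the AP-1 motif TGANTCA, the C/EBP motif TTGCNNAA and the CRE motif TGACGTCA. The stretches are written 5′ to 3′ on the gene's strand, with the motif in capitals.
Socs3, STAT, chr11:117969501-117969530, minus strand: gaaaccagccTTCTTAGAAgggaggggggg
Lif, AP-1, chr11:4257329-4257358, plus strand: ccagtcagctgTGACTCAggccatagtggc
Lif, RUNX, chr11:4257454-4257483, plus strand: tcaggctccatcTGTGGTgtgggtgctcta
Il11, AP-1, chr7:4778221-4778250, minus strand: aggagggagggTGAGTCAggatgtgtcagg
Il11ra1, RUNX, chr4:41762209-41762238, plus strand: cttcccaggcccTGTGGTgggagggaatga
Il6, AP-1, chr5:30012864-30012893, plus strand: cTGAGTCActtttaaagaaaaaaaagaaga
Il6, C/EBP read on the opposite strand, chr5:30012975-30013004, plus strand: acgacgtcacaTTGTGCAAtcttaataagg
The Lif and Il6 stretches lay outside the annotated genes, whereas those of Socs3, Il11 and Il11ra1 fell in introns of longer GENCODE vM21 transcripts of the same gene. Of the 12 windows, 1 held the STAT motif, against 8.3% of all 32851 windows in the RefSeq table. The RUNX motif was in 2 windows (16.8% of all windows), AP-1 in 4 (7.81%, the fourth being Osmr, downstream of its start) and C/EBP in 1 (10.8%). CRE was in 0 of the 12 (1.79% of all windows). These matches describe letters in a window and are not evidence of binding.

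The libraries held 2414856 to 3482837 reads on genes. Levels are given as normalized CPM, counts per 1000000 reads on genes after TMM scaling, so that 3 reads correspond to 0.854 to 1.25 normalized CPM, depending on the library. Def6 itself had 112 to 186 reads in the WT libraries and 0 to 2 in the Def6-/- libraries. WT day 0 replicate 1 stood apart: 14.1% of 12348 tested genes differed by over 2-fold between it and the mean of the other 3 day 0 libraries, against 1.68 to 2.81% for each of those. The deviation followed gene length. In WT day 0 replicate 1, genes with at least 10 kb of exons were lower than in the other day 0 libraries by a median log2 difference of -0.98 (390 genes), whereas genes under 2 kb were higher by 0.62 (2575 genes). Exon lengths of the 9 genes ran from 2081 bases (Il11) to 10973 bases (Il6st), with Lifr at 10383, Il6ra at 8642 and Osmr at 5491 bases. The part of this length pattern in the values below was not tested, so the tested changes of these genes that involve WT day 0 are also given without that library.

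**Figure D1:**
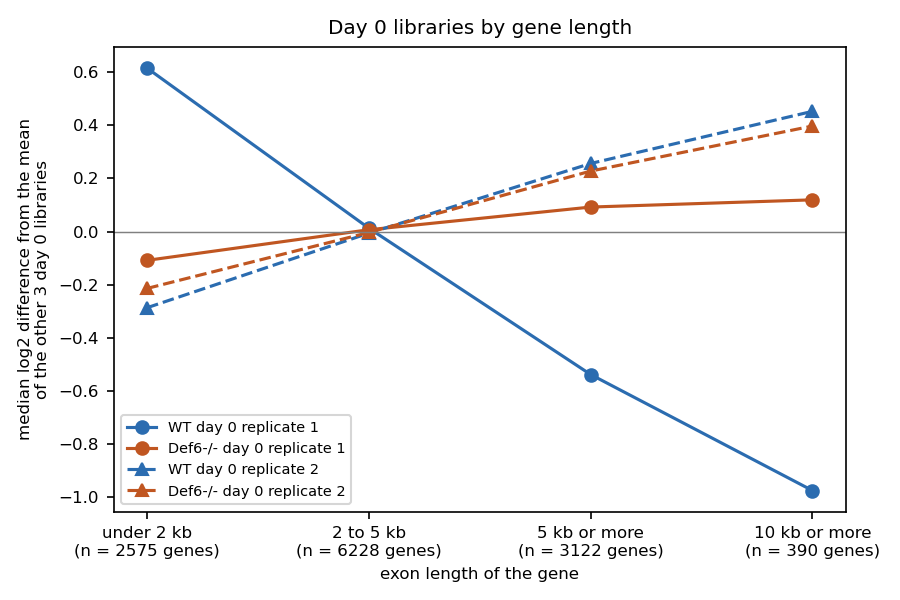
Median log2 difference of each day 0 library from the mean of the other 3, by exon length of the gene, with the number of genes per class on the x axis (the class of 10 kb or more is part of the class of 5 kb or more). WT day 0 replicate 1 falls from 0.62 below 2 kb to -0.98 at 10 kb or more, while the other libraries rise by a smaller amount. Def6-/- day 0 replicate 1 rises least, from -0.11 to 0.12. WT day 0 replicate 1 is part of the mean that each other library is compared with. Their rise is therefore not a measure independent of that library.

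Of the 9 genes, 8 reached a mean of 1 deposited CPM in at least 1 group and were tested, by limma across all 8 libraries with Benjamini-Hochberg adjustment over 12348 genes. Over 12 days, 3 receptor genes rose in WT cells (Il6ra, Il11ra1, Lifr) and 1 cytokine gene fell (Lif), and the same 4 genes passed in the same directions in Def6-/- cells. In WT cells 12.1% of all genes tested passed as higher at day 12 and 6.62% as lower. In Def6-/- cells the corresponding shares were 11.1% and 6.15%. The median log2 change of the 8 genes was -0.19 in WT and -0.31 in Def6-/- cells, against -0.04 and -0.06 over all genes. In these bulk libraries, fewer cells of a type and less RNA per cell cannot be told apart.

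**Figure D2:**
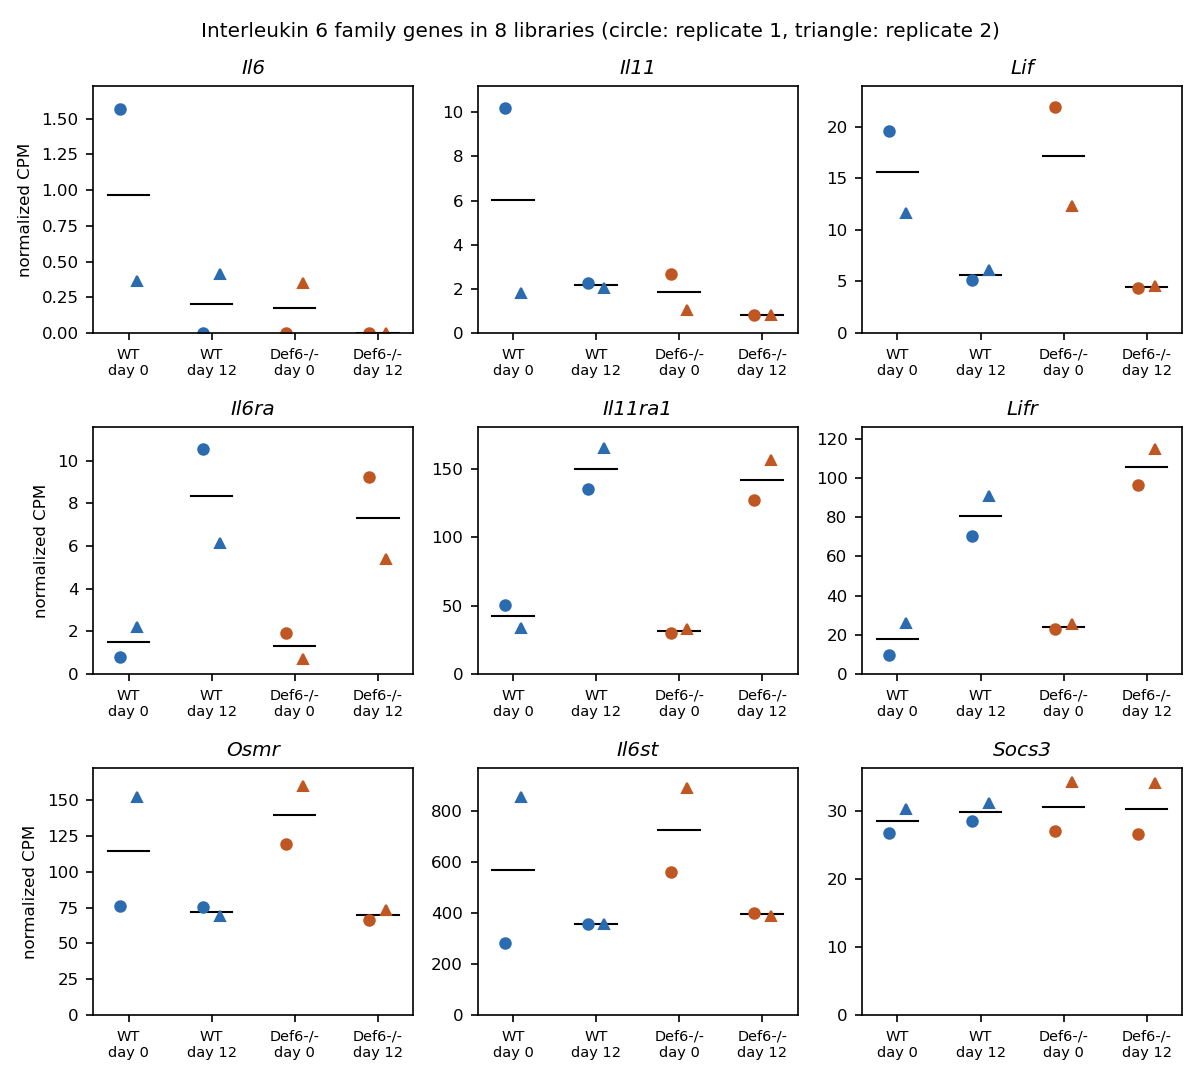
Normalized CPM of the 9 genes in each library (circle: replicate 1, triangle: replicate 2; black line: group mean; y axes start at 0 and differ between panels). Il11ra1, Lifr and Il6ra are higher in all 4 day 12 libraries than in all 4 day 0 libraries, Lif is lower, and WT day 0 replicate 1 is the lowest day 0 library for Il6st, Osmr and Lifr.

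Among the cytokines, Il6 was at the limit of detection. It had 4 and 1 reads in WT day 0, 0 and 1 in WT day 12, 0 and 1 in Def6-/- day 0, and 0 and 0 in Def6-/- day 12, a total of 7 reads. Thus 4 of the 8 libraries had no Il6 read, which allows up to 0.854 to 1.25 normalized CPM in a library, and no fold change is given.

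Il11, which encodes a cytokine that acts on osteoblast and osteoclast precursors, was also low. Its WT day 0 libraries held 10.2 and 1.82 normalized CPM (26 and 5 reads), and its WT day 12 libraries 2.28 and 2.05 (8 and 5 reads). The Def6-/- libraries held 2.70 and 1.06 at day 0 (7 and 3 reads) and 0.80 and 0.83 at day 12 (2 and 2 reads). The single high value was WT day 0 replicate 1, and Il11 passed the filter only through that group. The log2 change over 12 days was -0.83 ± 0.62 (SE) in WT and -0.60 ± 0.62 in Def6-/- cells, and neither passed (limma, adjusted p = 0.387 and 0.561). Without WT day 0 replicate 1 the WT estimate was 0.17, opposite in sign (limma, adjusted p = 0.861).

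Lif, which had more reads than Il6 or Il11, fell. Its level was 19.6 and 11.6 normalized CPM in WT day 0 (50 and 32 reads) and 5.12 and 6.15 in WT day 12 (18 and 15 reads). The Def6-/- levels were 22.0 and 12.3 at day 0 (57 and 35 reads) and 4.42 and 4.57 at day 12 (11 and 11 reads). Every day 12 library lay below every day 0 library. The ratio of group means was 2.77-fold lower at day 12 in WT and 3.81-fold lower in Def6-/- cells. The log2 change of Lif was -1.29 ± 0.36 (SE) in WT (limma, adjusted p = 0.0398) and -1.67 ± 0.36 in Def6-/- cells (limma, adjusted p = 0.0147). The WT call was close to the threshold. It was lost without WT day 0 replicate 1 (log2 change -0.93, adjusted p = 0.104) and without either WT day 12 library or either Def6-/- day 12 library (limma, adjusted p from 0.0734 to 0.204). It was also lost without the filter on low genes (limma, adjusted p = 0.0638), with only the WT libraries in the fit (limma, adjusted p = 0.102) and in DESeq2 (adjusted p = 0.0534), and it passed under 7 of 15 alternatives. In Def6-/- cells the call was lost without day 0 replicate 1 (log2 change -1.28) or either day 12 library (limma, adjusted p from 0.0873 to 0.135).

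Il6ra, the alpha receptor that binds IL-6, rose from near the detection limit. It measured 0.78 and 2.18 normalized CPM in WT day 0 (2 and 6 reads) and 10.5 and 6.15 in WT day 12 (37 and 15 reads). In Def6-/- cells it measured 1.93 and 0.70 at day 0 (5 and 2 reads) and 9.24 and 5.40 at day 12 (23 and 13 reads). The day 12 libraries all lay above the day 0 libraries, and Il6ra passed the expression filter only through the day 12 groups. The log2 change was 1.93 ± 0.47 (SE) in WT (limma, adjusted p = 0.0230) and 1.86 ± 0.47 in Def6-/- cells (limma, adjusted p = 0.0280). The ratio of group means was 5.62 in WT and 5.57 in Def6-/- cells. The WT change was 1.51 without WT day 0 replicate 1 and just passed (limma, adjusted p = 0.0497). Without WT day 12 replicate 1 or replicate 2 the WT call was lost (limma, adjusted p = 0.167 and 0.0612), and the Def6-/- call was lost without any 1 of the 4 Def6-/- libraries (limma, adjusted p from 0.0609 to 0.183).

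Markers of macrophages and other blood cells were also higher at day 12. Of 16 such markers, 13 rose in each genotype, and the sum of 15 of them (Ptprc was left out, because its values were not whole reads) ran from 216 to 446 normalized CPM at day 0 and from 3358 to 6729 at day 12. The largest part of this sum was Lyz2, at 89.7 to 245 normalized CPM at day 0 and 1886 to 4014 at day 12. WT day 12 replicate 1 had the highest sum, 6729, and the highest Il6ra level. Within day 0, WT replicate 1 had the highest sum, 446, with Il6ra at 0.78 normalized CPM. Def6-/- replicate 1 had the lowest day 0 sum, 216, with Il6ra at 1.93. Aif1 was at 0 reads in 2 day 0 libraries, and no listed marker was at 0 at day 12. In the same libraries, 5 of 10 osteoblast markers rose in WT and 6 of 10 in Def6-/- cells, with the bone matrix gene Bglap at 0 in every day 0 library and above 0 in every day 12 library. Of 6 adipocyte markers, 5 rose in WT and 6 in Def6-/- cells. Their sum ran from 37.7 to 46.6 normalized CPM at day 0 and from 308 to 425 at day 12. Most of that sum was Lpl, at 31.2 to 38.6 at day 0 and 275 to 360 at day 12. Bglap, Phex, Aif1, Adipoq, Plin1, Cfd and Fabp4 had at most 5 reads in any day 0 library. These markers entered the test only through 1 or both day 12 groups, Adipoq and Cfd only through Def6-/- day 12. Of 4 chondrocyte markers, 1 fell in WT and 2 fell and 1 rose in Def6-/- cells. Neutrophil, lymphocyte and endothelial markers summed to at most 6.15 normalized CPM in any library and none was tested, while the muscle and keratinocyte lists, with 1 tested gene each and sums of at most 10.8, gave no call. The part of these cells in the Il6ra values was not tested.

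**Figure D3:**
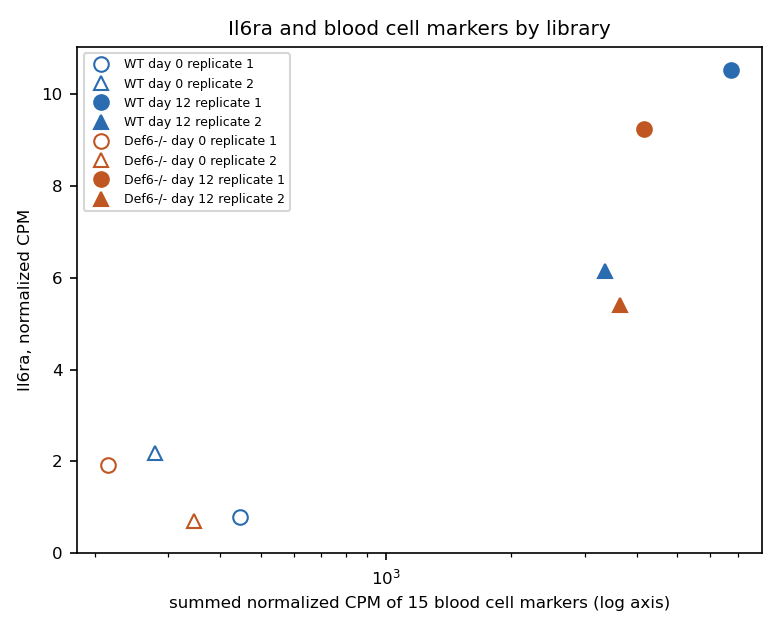
Il6ra (y axis, normalized CPM) against the summed normalized CPM of 15 macrophage and other blood cell markers (x axis, log scale) in the 8 libraries, open symbols for day 0 and filled for day 12. The 4 day 12 libraries lie at 3358 to 6729 on the marker axis and 5.40 to 10.5 for Il6ra, apart from the day 0 libraries on both.

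Il11ra1, the alpha receptor for IL-11, gave the firmest change of the 8 tested genes. Its level was 50.6 and 33.8 normalized CPM in WT day 0 and 135 and 165 in WT day 12. The Def6-/- levels were 29.7 and 33.1 at day 0 and 127 and 156 at day 12. All day 12 libraries lay above all day 0 libraries, and the ratio of group means was 3.56 in WT and 4.51 in Def6-/- cells. The log2 change was 1.83 ± 0.24 (SE) in WT (limma, adjusted p = 0.00129) and 2.13 ± 0.24 in Def6-/- cells (limma, adjusted p = 0.000653). Both calls were kept under all 15 alternatives, including the omission of each library, and the WT change was 2.11 without WT day 0 replicate 1. The mouse genome holds close copies of this gene (Il11ra2, Gm13305, Gm13306 and Gm2002). All 4 had 0 reads in every library, and since reads that align to several places were not counted, the Il11ra1 level is uncertain and the copies cannot be called silent.

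Lifr, the signalling receptor for LIF, rose to a like extent. It measured 9.80 and 26.2 normalized CPM in WT day 0 and 70.3 and 91.0 in WT day 12. Lifr reached 96.4 and 115 in Def6-/- day 12, from 23.1 and 25.4 in Def6-/- day 0. The groups of the 2 days did not overlap, and WT day 0 replicate 1 was the lowest library. The ratio of group means was 4.48 in WT and 4.36 in Def6-/- cells. The log2 change was 2.24 ± 0.38 (SE) in WT (limma, adjusted p = 0.00483) and 2.07 ± 0.38 in Def6-/- cells (limma, adjusted p = 0.00674), and the WT change was 1.57 without WT day 0 replicate 1. The WT call was lost without WT day 12 replicate 2 (limma, adjusted p = 0.0544) and the Def6-/- call without day 0 replicate 1 or day 12 replicate 2 (limma, adjusted p = 0.0608 and 0.0688). Thus the Lif transcript was lower and the transcript of its receptor higher at day 12 in each genotype.

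**Figure D4:**
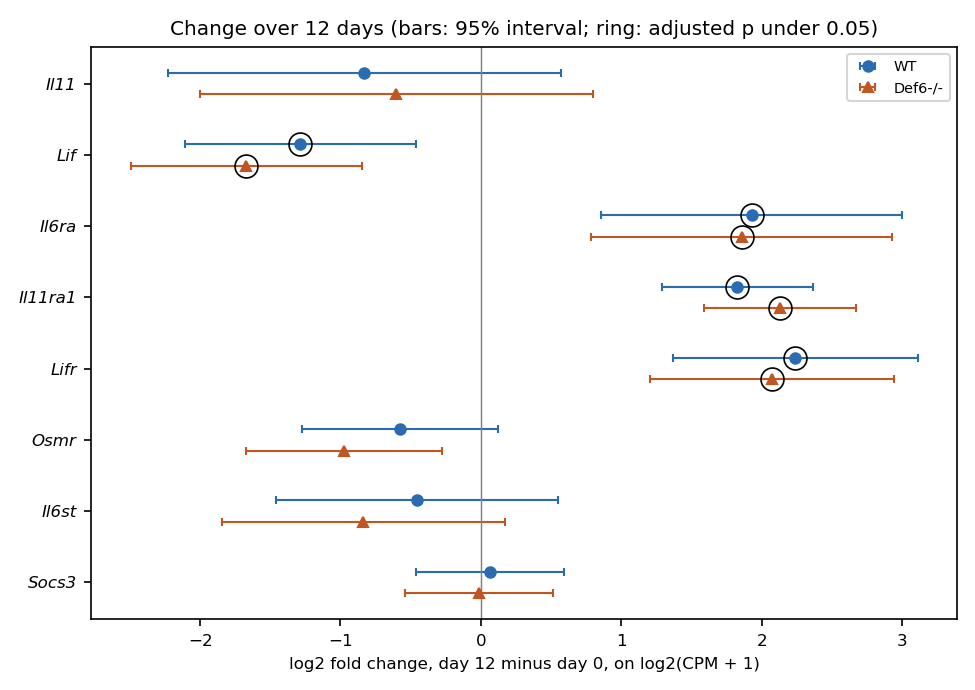
Log2 fold change from day 0 to day 12 (x axis, on log2(normalized CPM + 1)) of the 8 tested genes in WT (circles) and Def6-/- cells (triangles), with 95% intervals from the limma fit and a ring where the adjusted p is under 0.05. Il6ra, Il11ra1 and Lifr lie to the right of 0 and Lif to the left in both genotypes, and the intervals of the genotypes overlap for every gene.

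Osmr, the signalling receptor for oncostatin M, did not pass in the fit of all libraries, and its WT value turned on the library that stood apart. It measured 76.0 and 152 normalized CPM in WT day 0 and 75.1 and 68.9 in WT day 12. Osmr measured 119 and 159 in Def6-/- day 0 and 66.3 and 73.2 in Def6-/- day 12. The other 3 day 0 libraries were above every day 12 library, and WT day 0 replicate 1 was near the day 12 level. The log2 change was -0.58 ± 0.31 (SE) in WT (limma, adjusted p = 0.228) and -0.97 ± 0.31 in Def6-/- cells (limma, adjusted p = 0.0618). Without WT day 0 replicate 1, Osmr passed as lower at day 12 in WT, with a log2 change of -1.07 (limma, adjusted p = 0.00129). The Def6-/- change of -0.97 then passed as well (limma, adjusted p = 0.000399), with the same estimate and a smaller shared spread. Without WT day 0 replicate 2 instead, the WT change was -0.079 (limma, adjusted p = 0.754), and the Def6-/- change passed in that fit too (limma, adjusted p = 0.000425).

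Il6st, which encodes gp130, depended on that library as well. It was the gene with most reads, at 281 and 853 normalized CPM in WT day 0 and 357 and 357 in WT day 12. The Def6-/- cultures had 559 and 891 before and 400 and 390 after the 12 days. The replicates were close to each other at day 12, while the WT day 0 replicates lay on both sides of the day 12 level. The log2 change was -0.46 ± 0.44 (SE) in WT (limma, adjusted p = 0.514) and -0.84 ± 0.44 in Def6-/- cells (limma, adjusted p = 0.241). Without WT day 0 replicate 1 the WT change was -1.25 (limma, adjusted p = 0.00113), without replicate 2 it was 0.34 (adjusted p = 0.203), and the Def6-/- change of -0.84 passed in both fits (limma, adjusted p = 0.00269 and 0.00258).

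Socs3, the feedback inhibitor of gp130 signalling, was close to level across the groups. It measured 26.7 and 30.2 normalized CPM in WT day 0, 28.5 and 31.2 in WT day 12, 27.0 and 34.2 in Def6-/- day 0, and 26.5 and 34.1 in Def6-/- day 12. The ranges of all 4 groups overlapped. The log2 change over 12 days was 0.07 (95% interval -0.46 to 0.59) in WT and -0.01 (-0.54 to 0.51) in Def6-/- cells, and neither passed (limma, adjusted p = 0.872 and 0.980). The WT change was -0.020 without WT day 0 replicate 1.

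Levels of different genes were compared per kilobase of exon, a scale that depends on the GENCODE exon lengths used. Il6st led at day 0 with group means of 51.7 ± 36.9 (SD, n = 2) normalized CPM per kb in WT and 66.1 ± 21.4 in Def6-/- cells. Osmr was next (20.8 and 25.4) and Il11ra1 followed (16.8 and 12.5). At day 12 Il11ra1 led, with 59.8 ± 8.46 in WT and 56.4 ± 8.29 in Def6-/- cells, and Il6st was next (32.5 and 36.0). These neighbours did not overlap at day 12 in either genotype, whereas at day 0 in WT the libraries of Il6st and Osmr overlapped, as did those of Osmr and Il11ra1. Socs3 held the fourth place in every group, with means of 11.1 per kb at day 0 and 11.7 at day 12 in WT, although its libraries overlapped those of Il11ra1 in Def6-/- day 0 and those of Osmr and Lifr in Def6-/- day 12. Lifr exceeded Lif at day 12 (7.77 against 1.39 in WT and 10.2 against 1.11 in Def6-/- cells), and Lif was above Lifr at day 0 (3.86 against 1.73, and 4.23 against 2.33). Il11, Il6ra and Il6 took the last places except in WT day 0, where the Il11 mean of 2.89 per kb lay above that of Lifr, although their libraries overlapped. The group means of Il6ra and Il6 were at most 0.965 and 0.398 per kb. At their 3′ ends the GENCODE models of Il6ra (to 89864059) and Il6st (to 112510086) reach further than the RefSeq genes (89869324 and 112506860). With shorter exon lengths their levels per kb would be higher, and the order under RefSeq lengths was not tested. In WT day 0 replicate 2 alone, Il6st was at 77.8, Osmr at 27.8, Il11ra1 at 13.5, Lif at 2.87, Lifr at 2.52 and Il11 at 0.874 per kb.

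The genotype comparison asked whether loss of Def6 altered these genes before or after differentiation. No tested gene of the 8 passed at day 0 or at day 12 (limma with Benjamini-Hochberg adjustment), none had an unadjusted p under 0.05, and edgeR and DESeq2 on reads recovered from the CPM values also called 0. Over all genes, 0.0081% passed the adjusted threshold at day 0 and 0.0081% at day 12, which is 1 gene, Def6, each time. By the study's rule of an unadjusted p under 0.05 and a change over 1.2-fold, 2.34% of all genes passed at day 0 and 1.4% at day 12, and again 0 of the 8. At day 0 the median log2 difference of the 8 genes was 0.11 (0.00 over all genes), and at day 12 it was -0.07 (-0.01 over all genes). Among cell type markers, 4 of 6 adipocyte and 1 of 10 osteoblast markers passed the study's rule as higher in Def6-/- cells at day 12. For blood cell markers it was 0 of 16. None passed the adjusted threshold, and Adipoq and Cfd entered the test only through Def6-/- day 12. The part of cell types in the genotype values was not tested.

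At day 12 the estimates ran from -0.80 for Il11 to 0.39 for Lifr on the log2 scale, and their intervals were wide. The log2 difference between Def6-/- and WT was -0.08 for Il11ra1 (95% interval -0.63 to 0.46), 0.01 for Socs3 (-0.51 to 0.54), -0.05 for Osmr (-0.74 to 0.65) and 0.14 for Il6st (-0.86 to 1.15). For Lifr the log2 difference was 0.39 (-0.48 to 1.26), and for Lif it was -0.27 (-1.09 to 0.56). Il11 was at 2 reads in each Def6-/- library and at 8 and 5 in WT, a log2 difference of -0.80 (-2.20 to 0.60), and Il6ra differed by -0.17 (-1.24 to 0.91). None of these values shows that the genotypes are alike, since every interval admits a 1.37-fold difference in either direction.

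**Figure D5:**
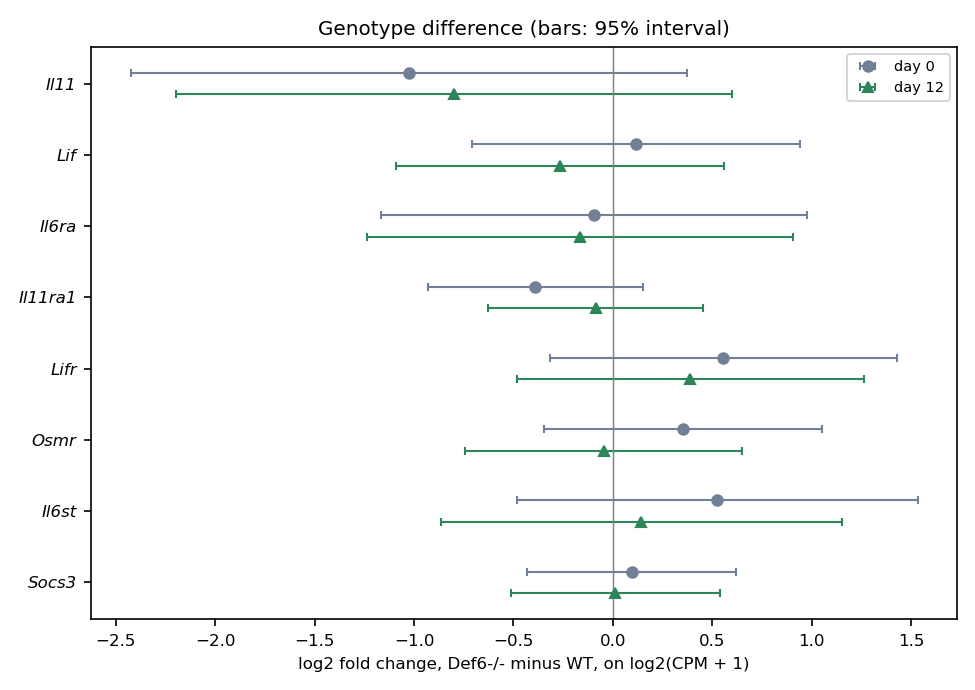
Log2 difference between Def6-/- and WT cells (x axis, on log2(normalized CPM + 1)) of the 8 tested genes at day 0 (circles) and day 12 (triangles), with 95% intervals from the limma fit. Every interval includes 0, and no gene has an adjusted p under 0.05.

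At day 0 the differences ran from -1.03 for Il11 to 0.56 for Lifr on the log2 scale and depended on WT day 0 replicate 1. With that library as the lone WT day 0 sample, 5 of the 8 genes passed: Il11 (log2 difference -2.02), Il11ra1 (-0.67), Osmr (0.85), Lifr (1.22) and Il6st (1.33). In that fit, 1530 genes of 12348 passed as higher and 1415 as lower in Def6-/- cells, and the lone sample was assumed to vary like the other groups. With WT day 0 replicate 2 in its place, 0 of the 8 passed, and 0 genes were called higher and 1 lower over all genes. Il6st, Lifr and Osmr, named above for the fit with replicate 1, each have over 5 kb of exons and were each low in WT day 0 replicate 1. The part of gene length in their day 0 differences was not tested.

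Whether the change over 12 days itself differed between genotypes was tested by the interaction. None of the 8 genes passed (limma, adjusted p = 0.9999 for each), and none did at an unadjusted p under 0.05 or by edgeR or DESeq2. The estimates ran from -0.40 for Osmr to 0.31 for Il11ra1 on the log2 scale. Over all genes, 0.0% passed the adjusted threshold and 1.06% passed the rule of unadjusted p and fold. With WT day 0 replicate 2 left out, Il6st (-1.18, adjusted p = 0.0185) and Osmr (-0.90, adjusted p = 0.0357) passed in limma. WT day 0 was then 1 library, assumed to vary like the other groups, and 596 genes of 12348 passed as positive and 760 as negative. With replicate 1 left out, 0 genes passed.

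Other genes of the pathway were taken from 6 lists of 57 genes, of which 48 were tested. In WT cells 7 rose (14.6%) and 4 fell (8.33%), and in Def6-/- cells 9 rose (18.8%) and 1 fell (2.08%), beside the shares of all genes given above. Without WT day 0 replicate 1, a setting added after the data were seen, 8 rose and 5 fell in WT and 14 rose and 8 fell in Def6-/- cells, while 1752 and 1472 of all genes passed in WT and 2205 and 2274 in Def6-/- cells. Among other ligands of gp130 receptors, 4 of 8 were tested. Ebi3, encoding a subunit of IL-27, was among those that rose in both genotypes, from at most 5 reads in a day 0 library to 10 to 32 reads at day 12. It entered the test only through the day 12 groups, and no fold is given because both Def6-/- day 0 libraries were at 0. The cytokine gene Clcf1 fell by 1.56 in WT cells on the log2 scale (limma, adjusted p = 0.0131), and its change of -1.11 in Def6-/- cells did not pass (limma, adjusted p = 0.0521). The WT change of Clcf1 was -1.19 without WT day 0 replicate 1, near its Def6-/- change. In the fit of all libraries its interaction was not called (limma, adjusted p = 0.9999). Ctf1, encoding cardiotrophin, rose in Def6-/- cells (log2 change 1.74, limma, adjusted p = 0.0405), its WT change of 0.64 did not pass, and the interaction was not called (limma, adjusted p = 0.9999). Ctf1 was low, with 5 and 21 reads in Def6-/- day 0 and 37 and 39 in Def6-/- day 12. In WT it had 11 and 21 reads at day 0 and 37 and 21 at day 12. Oncostatin M, the ligand of OSMR, was not tested, with 0 to 3 Osm reads in a library.

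Of 4 other receptor chains only Cntfr, the receptor for ciliary neurotrophic factor, was tested. Its log2 changes of 1.12 and 1.13 did not pass in the fit of all libraries (limma, adjusted p = 0.114 and 0.122). The proteases Adam10 and Adam17, which release receptor ectodomains, did not pass in either genotype in that fit, with log2 changes from -0.21 to 0.50. Among the kinases, STATs and adaptors, Stat3, the main transducer of gp130, had log2 changes of -0.07 and -0.23 that did not pass (limma, adjusted p = 0.853 and 0.506).

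Of 11 inhibitors, the phosphatase gene Ptpn6, known from blood cells, rose by 2.34 in WT and 2.52 in Def6-/- cells on the log2 scale (limma, adjusted p = 0.00328 and 0.00232). Its highest level, 37.0 normalized CPM, was in WT day 12 replicate 1, the library with the highest sum of blood cell markers. At day 12, Ptpn6 was at 19.7 in WT replicate 2, 22.1 in Def6-/- replicate 1 and 28.3 in Def6-/- replicate 2. The marker sums of those libraries were 3358, 4162 and 3641. The part of blood cells in the Ptpn6 values was not tested. Socs2 rose in Def6-/- cells by 1.18 (limma, adjusted p = 0.0397), and its WT change of 0.82 did not pass, although without WT day 0 replicate 1 the WT change was 1.30 and passed (limma, adjusted p = 0.00371).

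Of 22 STAT3 target genes, 20 were tested. The genes that passed as higher at day 12 were Steap4, Hp, Icam1 and Serpina3n in both genotypes. Those that passed as lower were Fos in both and Timp1 in WT. Steap4, a metalloreductase gene, had 0 to 3 reads in the day 0 libraries and 323 to 394 reads at day 12. Hp, encoding haptoglobin, had 0 to 2 reads at day 0 and 82 to 85 reads at day 12. These genes entered the test only through the day 12 groups, and their fitted folds, which the pseudocount would set, are not given. Icam1, an adhesion molecule gene, changed by 2.03 and 1.92 and Serpina3n, a protease inhibitor gene, by 2.001 and 1.59. Fos, encoding an AP-1 subunit, changed by -1.10 in WT and -0.97 in Def6-/- cells, and Timp1, a metalloproteinase inhibitor gene, by -1.73 in WT. The Def6-/- change of Timp1 was -1.31, in the same direction, and did not pass (limma, adjusted p = 0.112). Its interaction was not called (limma, adjusted p = 0.9999). The WT changes of Timp1 and Fos were -0.83 and -0.87 without WT day 0 replicate 1, and both still passed (limma, adjusted p = 0.0282 and 0.0435). The median log2 change of the 20 tested targets was 0.02 in WT and 0.03 in Def6-/- cells, against -0.04 and -0.06 over all genes.

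Between genotypes, no gene of the 48 passed limma's adjusted threshold at either day or in the interaction, and edgeR and DESeq2 called at most 1 gene in all. At an unadjusted p under 0.05 and over 1.2-fold, 2 genes were higher in Def6-/- cells at day 0, 4.17% of the list. Over all genes the share in either direction was 2.34%. The 2 genes were Klf4, a transcription factor gene (log2 difference 0.61), and Socs7 (0.51), both with a limma adjusted p of 0.905. Without WT day 0 replicate 1 each difference was 0.41. At day 12 and in the interaction, 0 of the 48 passed this rule.

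The genes most like each member were taken by Pearson's r of log2(normalized CPM + 1) over the 8 libraries, as a description, from 8477 genes with a mean of at least 5 deposited CPM. Most like Lif were Hnrnpd (r = 0.998), Nes (0.994) and Pus7 (0.993), and most like Lifr were Cd276 (0.997), 4632415L05Rik (0.996) and Igfbp5 (0.995). Il11ra1 was closest to the complement gene Cfb (0.997), Il6st to Nbea (0.999), Osmr to Akap12 (0.994), and Il6ra to D630003M21Rik (0.983), with Adam17 in the third place (0.981). Il11 was closest to 2010107E04Rik (0.982). Socs3, which varied least, had no gene above 0.917 (Zfp322a). All points share their libraries, so the day 0 to day 12 contrast and WT day 0 replicate 1 enter every one of these values.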

How the data were processed

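Total RNA was poly(A)-selected and sequenced by the authors, whose processing notes and methods name fastp, HISAT2 (mm10), HTSeq and edgeR, without versions in the sources used here. The authors deposited CPM per gene, relative to all HTSeq reads including those assigned to no gene. Reads on genes made up 28.8 to 35.3% of that total, and alignments to several places, which were not assigned to genes, 21.4 to 34.9%. Whether counting used strand is not given in the sources used here. Rows that named no gene were left out (64.7 to 71.2% of reads). Each deposited CPM value was divided by the value of 1 read. Within 0.05 reads, 99.959% of 114821 positive values were whole, and the 47 exceptions fell in 9 marker genes, none of them an interleukin 6 family gene. Counting intervals and floors (3 reads) cover counting error only.

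The CPM values were rescaled to reads on genes with TMM factors (edgeR 4.0.16, R 4.3.3). Genes with a mean of at least 1 deposited CPM in at least 1 group entered limma 3.58.1 (lmFit, eBayes with trend) on log2(normalized CPM + 1), with 4 group means and 1 spread shared by all 8 libraries. Fold changes on this scale understate changes of low genes. p-values were adjusted by Benjamini-Hochberg over 12348 genes. The study's own count test, edgeR, could not be the main test because the files hold CPM. It was run on the recovered reads, as was DESeq2 1.42.0. The other alternatives were a pseudocount of 0.5, no filter, CPM without TMM factors, only the groups compared, a replicate block, and the omission of each library. In simulated data for the day 12 genotype comparison (12348 genes, 200 changed), 92% of 4-fold and 33% of 2-fold changes were called, and 4.58% of unchanged genes had p under 0.05. The changed genes were drawn above a mean level that Il11 and Il6ra do not reach, so these rates do not cover them. Neither a change over days nor the length pattern of WT day 0 replicate 1 was simulated.

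Groups were taken from the sample titles. All 9 genes are named, with pathway genes that passed in a list. Some pathway genes are not reported here. The members, the lists and the tests were chosen with earlier results of these data known. Gene models and exon lengths are from GENCODE vM21 (96.6% of tested genes had a length), and promoter sequences from RefSeq.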

Additional observations from a re-analysis of the deposited data

How the results depend on the processing

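When each fit took only the 4 libraries compared, the members called over 12 days in WT cells numbered 2 (Il11ra1, Lifr) instead of 4 and those in Def6-/- cells 6 instead of 4 (Osmr and Il6st added, adjusted p = 0.00209 and 0.0108), while the genes called over all genes numbered 823 higher and 217 lower in WT and 2050 and 2073 in Def6-/- cells. Signs turned for estimates near 0 in edgeR and DESeq2 (Socs3 over time in Def6-/- cells, 0.062 and 0.052, and Il6ra in the interaction, 0.036 and 0.03), in edgeR (Lifr in the interaction, 0.00089) and with CPM as deposited (Il11ra1 and Osmr between genotypes at day 12, 0.0013 and 0.038). Of 272 values under such settings, 257 kept direction and side of the threshold, 4 lost the threshold, 4 gained it and 7 turned. Of 320 values with 1 library left out, the counts were 254, 17, 14 and 35.

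Leaving out each library in turn, 1 to 5 members were called in WT over time, 1 to 6 in Def6-/- cells, 0 to 5 between genotypes at day 0, and 0 to 2 in the interaction. Over all genes the same fits called 641 to 2987 higher and 171 to 2722 lower in WT, 670 to 2205 and 144 to 2285 in Def6-/- cells, 0 to 1530 and 1 to 1415 at day 0, and 0 to 596 and 0 to 760 in the interaction. The log2 changes that turned sign ranged as follows. Over time in WT, Il11 ran from -1.82 to 0.17, Il6st from -1.25 to 0.34 and Socs3 from -0.020 to 0.15, and in Def6-/- cells Socs3 ran from -0.19 to 0.16. Between genotypes at day 0, Lif ran from -0.28 to 0.51, Il6ra from -0.51 to 0.32, Lifr from -0.11 to 1.22, Osmr from -0.14 to 0.85, Il6st from -0.27 to 1.33 and Socs3 from -0.071 to 0.26. At day 12, Il6ra ran from -0.51 to 0.18, Il11ra1 from -0.23 to 0.065, Osmr from -0.12 to 0.024 and Socs3 from -0.16 to 0.19. In the interaction, Il11 ran from -0.77 to 1.22, Lif from -0.78 to 0.0085, Il6ra from -0.49 to 0.35, Lifr from -0.83 to 0.50, Osmr from -0.90 to 0.10, Il6st from -1.18 to 0.42 and Socs3 from -0.26 to 0.10. Apart from fewer samples, the cause was not tested.

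Replicate numbers did not establish pairing, since the deviations of same-numbered libraries correlated from 0.00284 to 0.325. With a replicate block, 4 members were called over time in WT and 5 in Def6-/- cells, where Osmr was added (limma, adjusted p = 0.0344). Between genotypes or in the interaction 0 members were called. Over all 12348 genes this setting called 1604 higher and 984 lower in WT, and 1463 and 860 in Def6-/- cells. It called 0 higher and 1 lower between genotypes at each day, and 0 in the interaction. Depth limits Il6, Il11 and Il6ra, which had 7, 58 and 103 reads in all.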
